A study of Mus musculus with 16 samples.

Results

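The acute phase and complement genes described here are 9 genes of the innate defence system, namely SERPINA3N, SERPINA3G, LCN2, SAA3, HP, C3, C1S, C4B and SERPING1. They were found by name among the 30854 target names of the deposited probe table, where 15 of 45281 probes carried the names of the 9 genes. The set was built around SERPINA3N, which had the clearest rise with FGF2 in PA6 cells grown alone, so the set was chosen by the measured values of that contrast, which are given below as a description with no test. All 15 probes passed the filter on dim probes, which kept 20880 probes and 14829 genes if all arrays of some group detected them. The SERPINA3N probe met this in the 2 FGF2 groups alone, so it entered the tests through the groups in which it was high. The number of probes was 1 each for SERPINA3N, SERPINA3G, LCN2, SAA3 and C3, 2 each for C1S and SERPING1, and 3 each for HP and C4B. The cultures were of mouse cells at day 7 in serum-free medium, on 16 arrays in 6 groups. ES/PA6 co-cultures held embryonic stem (ES) cells that carry the enhanced green fluorescent protein knocked in under the tau promoter, on a monolayer of PA6 cells, an established stromal line of mouse bone marrow. They comprised 2 arrays without growth factors (-GFs), 3 with FGF2 and 2 with BMP4. PA6 mono-cultures comprised 3 arrays each of -GFs, FGF2 and BMP4. The recombinant factor was present for 3 days from the start and then withdrawn, at 20 ng/ml for FGF2 and, per the labels, 10 ng/ml for BMP4, a dose that is lower in the study's methods. Each culture was thus sampled after the factor had been gone for several days, and a co-culture array measures ES-derived and stromal RNA together.

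In the acute phase reaction, tissues answer injury and infection by making more of a set of secreted proteins. Interleukin-6 type cytokines acting through STAT3, interleukin-1 and tumour necrosis factor acting through NF-kB, and the C/EBP factors are the classical regulators of these genes. Complement is a cascade of plasma proteases in which C1s cleaves C4 and C2, the products cleave C3, and C1 inhibitor, the product of SERPING1, blocks C1s. The liver is the main source in the body, but fibroblasts, adipocytes and marrow stroma also make many of these proteins.

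The share of probes detected (detection p under 0.05) was 37.3% to 47.0% per array. Levels are log2 normalized intensities of a probe. They are compared between arrays for a given probe and not between probes. Of 10 stromal fibroblast markers 9 or 10 were detected on every array of each PA6 group, while of 10 neural markers at most 1 was. No group detected the defining hepatocyte genes ALB, AFP and TTR on all of its arrays, nor the macrophage genes PTPRC, CSF1R and ITGAM or the neutrophil genes S100A8, S100A9 and MPO. Of the same lists CD68 and LAPTM5 were detected on every co-culture array, LYZ2 on every PA6 array and CAMP on every array without factors or with BMP4 of both kinds of culture. LAPTM5 was called higher with FGF2 in co-cultures (4.11 ± 0.59 on the log2 scale, SE, limma adjusted p = 0.0120). The summed intensity of the 2 tested hepatocyte and visceral endoderm genes of 8 listed, APOA1 and TRF, was 88.5 to 260 on all arrays.

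RefSeq promoter windows of assembly GRCm38.p6, from 250 bases before to 50 after the start of the gene, were at hand for 6 of the 9 genes. The deposited table names no build and gives no probe coordinates, so these windows are shown for the genes and say nothing of the probes. The windows below belong to SERPINA3N and SERPINA3G, neighbours of the Serpina3 cluster with different responses here, to LCN2, which varied most between arrays, and to C3, the central complement protein. Capitals mark matches to the STAT-type motif TTCNNNGAA, the NF-kB-type motif (GGG, any 3 bases, TTCC) or the C/EBP-type motif TTGCNNAA, searched on both strands.
Serpina3n, chr12:104406458-104406757, plus strand: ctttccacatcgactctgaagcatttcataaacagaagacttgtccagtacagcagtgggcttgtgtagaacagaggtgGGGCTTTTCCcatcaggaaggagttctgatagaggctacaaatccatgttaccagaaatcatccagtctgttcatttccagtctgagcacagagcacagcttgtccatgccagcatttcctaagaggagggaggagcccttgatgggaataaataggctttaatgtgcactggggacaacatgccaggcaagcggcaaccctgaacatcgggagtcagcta
Serpina3g, chr12:104235897-104236196, plus strand: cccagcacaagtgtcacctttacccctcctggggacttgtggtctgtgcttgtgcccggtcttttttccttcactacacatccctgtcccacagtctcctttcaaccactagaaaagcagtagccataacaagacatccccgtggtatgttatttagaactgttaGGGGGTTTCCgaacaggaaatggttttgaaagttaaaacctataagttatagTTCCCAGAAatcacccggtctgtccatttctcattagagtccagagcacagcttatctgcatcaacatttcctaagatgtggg
Lcn2, chr2:32387690-32387989, minus strand: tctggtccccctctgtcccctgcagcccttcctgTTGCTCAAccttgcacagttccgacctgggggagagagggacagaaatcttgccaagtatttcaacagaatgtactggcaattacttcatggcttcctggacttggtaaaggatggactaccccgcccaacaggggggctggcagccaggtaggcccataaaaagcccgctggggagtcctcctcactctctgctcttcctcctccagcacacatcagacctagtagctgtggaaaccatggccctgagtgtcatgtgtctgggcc
C3, chr17:57228087-57228386, minus strand: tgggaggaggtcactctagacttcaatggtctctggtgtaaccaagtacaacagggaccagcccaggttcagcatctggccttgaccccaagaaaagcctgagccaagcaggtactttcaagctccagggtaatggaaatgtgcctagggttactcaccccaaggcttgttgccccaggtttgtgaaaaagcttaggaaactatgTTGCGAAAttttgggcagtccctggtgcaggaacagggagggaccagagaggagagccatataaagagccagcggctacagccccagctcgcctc
The Serpina3n window held the NF-kB-type motif 171 bases before the start and neither of the other motifs. The Serpina3g window held the NF-kB-type motif at 85 and TTCNNNGAA at 33 bases before the start. The Lcn2 and C3 windows held TTGCNNAA at 216 and 45 bases before the start, and the Saa3 window and 1 of the C1s1 windows held it at 99 and 242, on the other strand. No marked matches overlapped. Among 32851 promoter windows of this length 8.30% held TTCNNNGAA, 5.56% the NF-kB-type motif and 10.8% TTGCNNAA, so each is a common run of letters, and a match describes the sequence only. Hp, C4b and Serping1 had no entry.

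**Figure D1:**
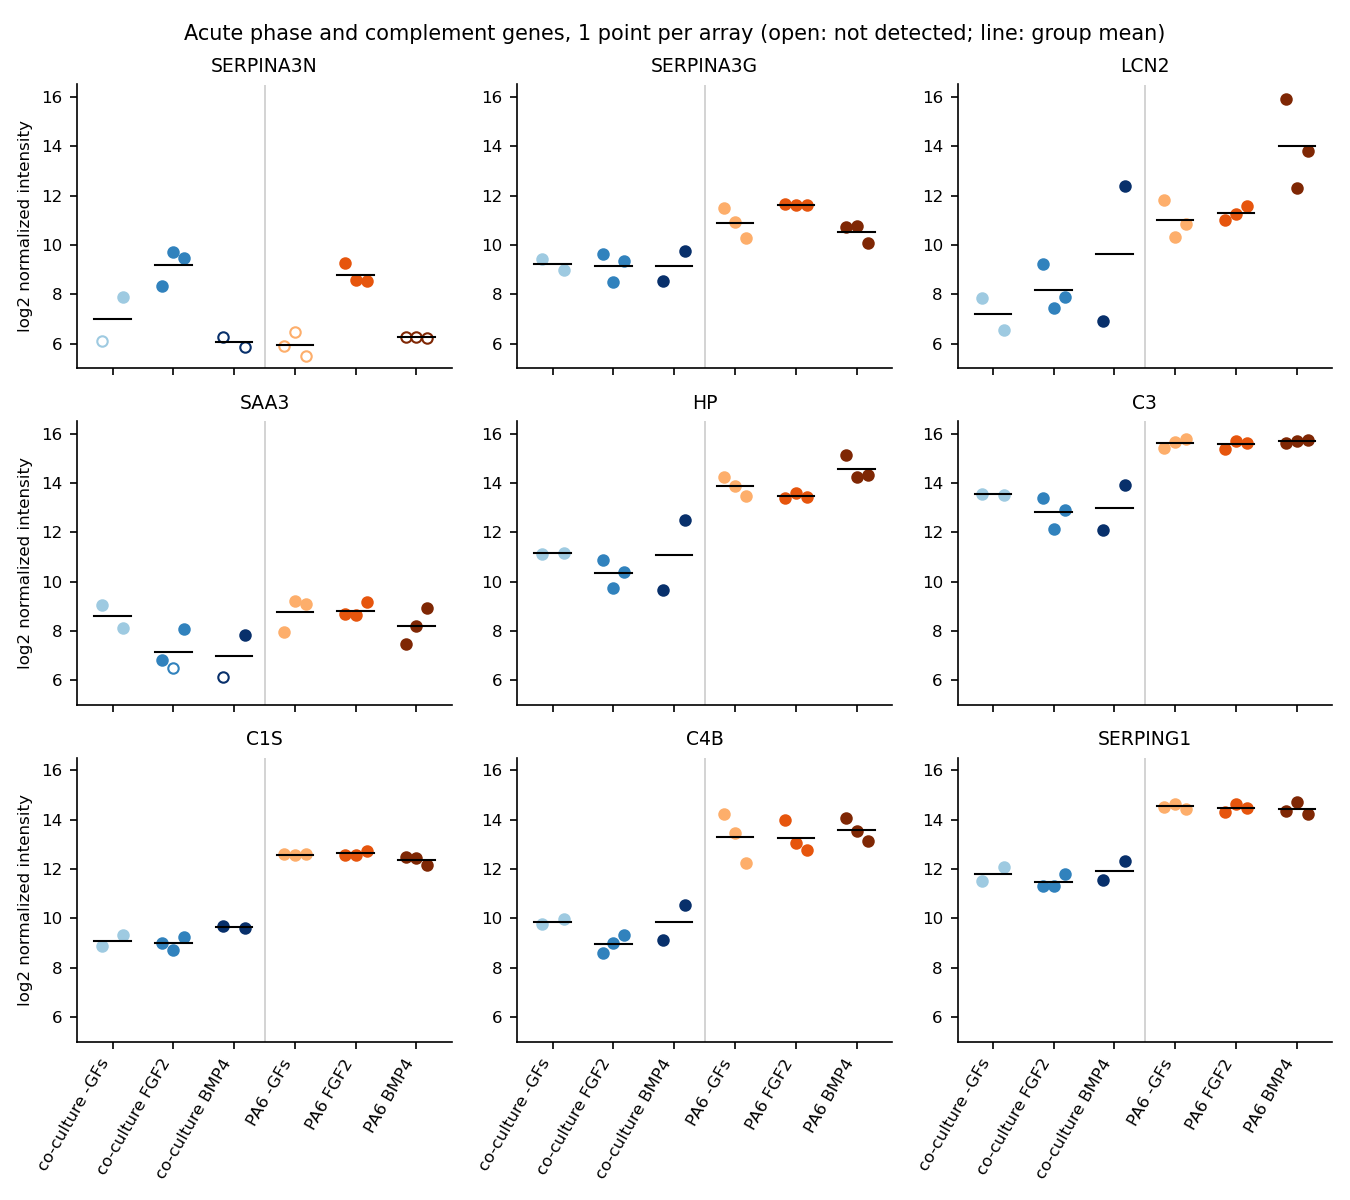
Log2 normalized intensity (y axis) of each gene in the 6 groups of cultures (x axis), with 1 point per array, open where the probe was not detected, and a line at the group mean. SERPINA3N was detected on the FGF2 arrays of both kinds of culture and on 1 array without factors, and most other genes lay lower in co-cultures than in PA6 alone.

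SERPINA3N encodes a secreted inhibitor of serine proteases, the mouse counterpart of antichymotrypsin. In PA6 alone its log2 level (probe ILMN_1246800) was 9.27, 8.60 and 8.54 on the 3 FGF2 arrays, against 5.90, 6.47 and 5.52 without factors and 6.28, 6.27 and 6.24 with BMP4. The 6 arrays without FGF2 were all below detection and the 3 FGF2 arrays all above it. The difference between the FGF2 and -GFs means was 2.84 on the log2 scale, and against the detection level of the -GFs arrays SERPINA3N was at least 4.33-fold higher with FGF2. This contrast picked the gene and has no test here. Among all genes tested, 0.0270% were called in it and 8.18% had FGF2 arrays all above the -GFs arrays.

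The contrast that chose the genes was in PA6 alone. The co-cultures addressed whether the factors change the same genes when ES cells differentiate on the stroma. Because the genes were chosen with earlier results of these data known, the co-cultures are not an independent check. SERPINA3N stood at 8.33, 9.72 and 9.49 in co-cultures with FGF2, at 6.12 and 7.90 without factors and at 6.28 and 5.87 with BMP4. The FGF2 arrays lay above both others, but the -GFs arrays were unlike each other, since replicate 1 was below detection and replicate 2 above it. The rise with FGF2 was 4.50-fold, 2.17 ± 0.59 on the log2 scale (SE, limma adjusted p = 0.0810), and SERPINA3N was called. Its probe entered the tests through the FGF2 groups alone, so the call is no independent support of a rise. A call needed an adjusted p under 0.1 and a log2 change over 1 in size. SERPINA3N was the only called gene of the 9 in this comparison, where 7.42% of all genes were called and 5.07% were called higher. FGF2 arrays all above -GFs arrays were found for 17.6% of all genes. With BMP4 the change against -GFs was -0.94 ± 0.64 (SE, adjusted p = 0.589) with overlapping groups. It was -1.83 without -GFs replicate 1 and -0.05 without -GFs replicate 2, and with the run of neighbouring columns as a block it was -1.76 and called (adjusted p = 0.0571). Against FGF2 the BMP4 arrays were below detection and at least 7.14-fold lower (log2 change -3.11 ± 0.59, SE, adjusted p = 0.0915). The limit from the filter holds here too, and the log2 change is set against arrays below detection. SERPINA3N was again the only call among the 9, where 1.44% of all genes were called and 0.688% were called lower. BMP4 arrays all below the FGF2 arrays were found for 14.6% of all genes. Comparisons within a kind of culture share their control arrays and are not independent of each other.

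These calls of SERPINA3N stood close to the limit of 0.1. Without the filter on dim probes neither was called (2.17, adjusted p = 0.158, for FGF2 against -GFs and -3.11 for BMP4 against FGF2). The rise with FGF2 was 3.06 without co-culture -GFs replicate 2 and was not called without co-culture -GFs replicate 1 (1.28, adjusted p = 0.305), FGF2 replicate 2 (1.90, 0.190) or FGF2 replicate 3 (2.02, 0.158), or without either BMP4 array (2.17, 0.111 each), nor with the replicate number as a block (2.02, adjusted p = 0.132). The difference of BMP4 from FGF2 was not called without FGF2 replicates 1, 2 or 3 (-3.53, -2.84 and -2.96, adjusted p = 0.116, 0.230 and 0.170) or BMP4 replicates 1 or 2 (-3.31 and -2.90, adjusted p = 0.177 and 0.423), nor with the block (-2.96, adjusted p = 0.160). The direction was the same in all of these fits. On the same arrays other cell markers moved as well. The summed intensity of 8 pluripotency markers was 40500 to 46800 without factors and 122000 to 140000 with FGF2, that of 3 tested macrophage markers of 10 listed was 403 to 472 and 3340 to 6660, and that of 3 tested endothelial markers of 8 listed was 256 to 351 and 1840 to 3330. Of the 3 tested macrophage markers LAPTM5 alone was called higher, and their median log2 change was 0.83. The part of pluripotent, macrophage and endothelial cells in the SERPINA3N rise was not tested. In PA6 alone the macrophage sum was 250 to 381 without factors and 364 to 737 with FGF2.

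SERPINA3G, an intracellular serpin of the same cluster that inhibits cathepsins, had another pattern. In PA6 alone its level (probe ILMN_2725927) was 11.65, 11.63 and 11.62 with FGF2, 11.51, 10.95 and 10.27 without factors and 10.72, 10.75 and 10.08 with BMP4. The FGF2 arrays lay above the -GFs arrays, by 0.73 between means, which is a description because the contrast chose the set. BMP4 was lower than FGF2 by a log2 change of -1.12 ± 0.30 with no overlap, which did not pass (SE, adjusted p = 0.260). In co-cultures the levels were 9.63, 8.50 and 9.35 with FGF2, 9.44 and 9.0 without factors and 8.56 and 9.76 with BMP4. Here the groups overlapped throughout, and the change with FGF2 was -0.06 ± 0.45 (SE, adjusted p = 0.957).

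**Figure D2:**
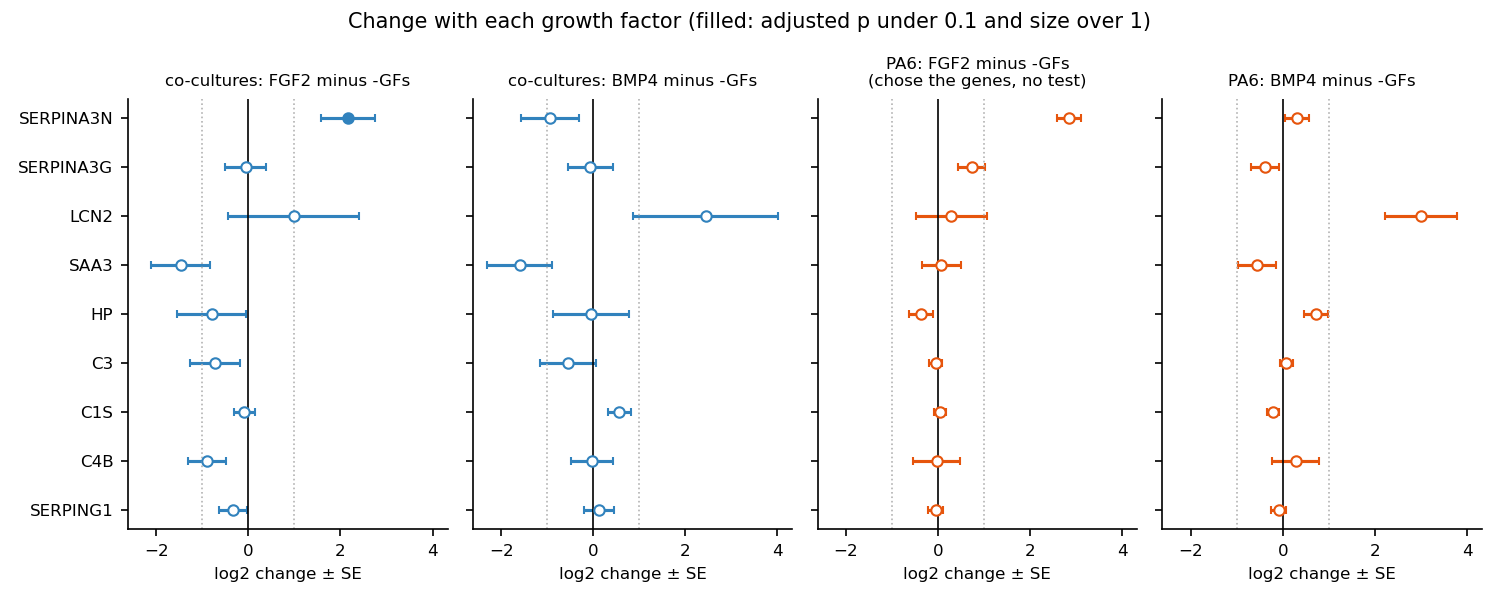
Log2 change of each gene with FGF2 or BMP4 against -GFs (x axis, point and SE) in co-cultures and in PA6 mono-cultures, with dotted lines at a size of 1 and filled points for calls. The called point is SERPINA3N with FGF2 in co-cultures (2.17), the change of LCN2 with BMP4 in PA6 had a larger size (3.00) and was not called, and the third panel carries no test.

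LCN2 encodes lipocalin 2, which binds iron-carrying siderophores of bacteria. It was the gene with the widest range, and its probe reached 85.3% of the highest intensity of the same array. In PA6 its level (probe ILMN_2712075) was 15.91, 12.30 and 13.79 with BMP4, 11.83, 10.31 and 10.85 without factors and 11.02, 11.26 and 11.57 with FGF2. The BMP4 arrays lay above all other PA6 arrays but spread over more than 3 log2 units. The change with BMP4 against -GFs was 3.00 ± 0.78 (SE, limma adjusted p = 0.477) and was not called. In co-cultures with BMP4 the arrays were far apart, at 6.92 on replicate 1 and 12.37 on replicate 2, beside 7.86 and 6.56 without factors and 9.24, 7.44 and 7.88 with FGF2. The change with BMP4 there was 2.44 ± 1.57 (SE, adjusted p = 0.561). It was 5.16 and called without BMP4 replicate 1 (adjusted p = 0.0949), and -0.29 without BMP4 replicate 2. With median scaling it was 2.59 and called (adjusted p = 0.0127).

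HP encodes haptoglobin, which binds free haemoglobin. In PA6 its level (probe ILMN_2944824) was 15.14, 14.26 and 14.31 with BMP4, 14.24, 13.86 and 13.48 without factors and 13.41, 13.58 and 13.45 with FGF2. The lowest BMP4 array lay just above the highest -GFs array. The change with BMP4 was 0.71 ± 0.26 against -GFs (SE, adjusted p = 0.532) and 1.09 ± 0.26 against FGF2 (SE, adjusted p = 0.218), and neither passed. With a trend in the variance prior the latter was called (adjusted p = 0.0993). The other HP probes gave 0.63 and 0.59 against -GFs, with groups that overlapped. In co-cultures HP stood at 9.68 and 12.50 with BMP4, with the same array high as for LCN2, and at 11.12 and 11.17 without factors and 10.86, 9.76 and 10.41 with FGF2.

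With BMP4 in PA6 limma called 0 of the 8 genes tested and 0% of all genes, and LCN2 and HP were the 2 of the 8 whose unadjusted p was under 0.05, as it was for 1334 of 14829 genes. These 2 also had BMP4 arrays all above the -GFs arrays, as did 6.23% of all genes, and C1S had them all below, as did 8.71%. Between BMP4 and FGF2 in PA6, limma called 0 of the 8 genes tested, and 3 of them, SERPINA3G, LCN2 and HP, had an unadjusted p under 0.05, as 1375 of 14829 genes did, and 0.310% of all genes were called. LCN2 and HP had BMP4 arrays all above the FGF2 arrays, as did 7.14% of all genes, and SERPINA3G and C1S had them all below, as did 8.32%. With BMP4 against -GFs in co-cultures limma called 0 of 9, none of them under an unadjusted p of 0.05, where 3.75% of all genes were called. SAA3 lay below the -GFs arrays there with no overlap, as did 23.3% of all genes, and C1S above them, as did 22.8%.

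Adipocyte markers also varied between these arrays. The summed intensity of the 7 tested adipocyte markers of 10 listed was 176000, 19800 and 55200 on PA6 BMP4 replicates 1 to 3, 26600, 6760 and 6100 on the -GFs arrays and 7260, 4660 and 5600 on the FGF2 arrays. In co-cultures it was 3270 on BMP4 replicate 1 and 19900 on replicate 2, 4340 and 2000 without factors and 2520 to 3570 with FGF2. The array order of LCN2 was that of the adipocyte sum within PA6 BMP4 and within the 3 co-culture groups. It was not within PA6 FGF2, where the array with the highest sum had the lowest LCN2, nor within PA6 -GFs, where the array with the highest sum had the highest LCN2 but the other 2 were in the opposite order. No group detected FABP4, PLIN1 or RETN of the list on all of its arrays, and the 7 others were detected on every PA6 BMP4 array. The neutrophil list rested on CAMP alone, at 416 to 2010 with BMP4 and 131 to 170 without factors in PA6. The part of these cells in the LCN2 and HP values was not tested, and in bulk samples such as these more cells of a type and more RNA per cell cannot be told apart.

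**Figure D3:**
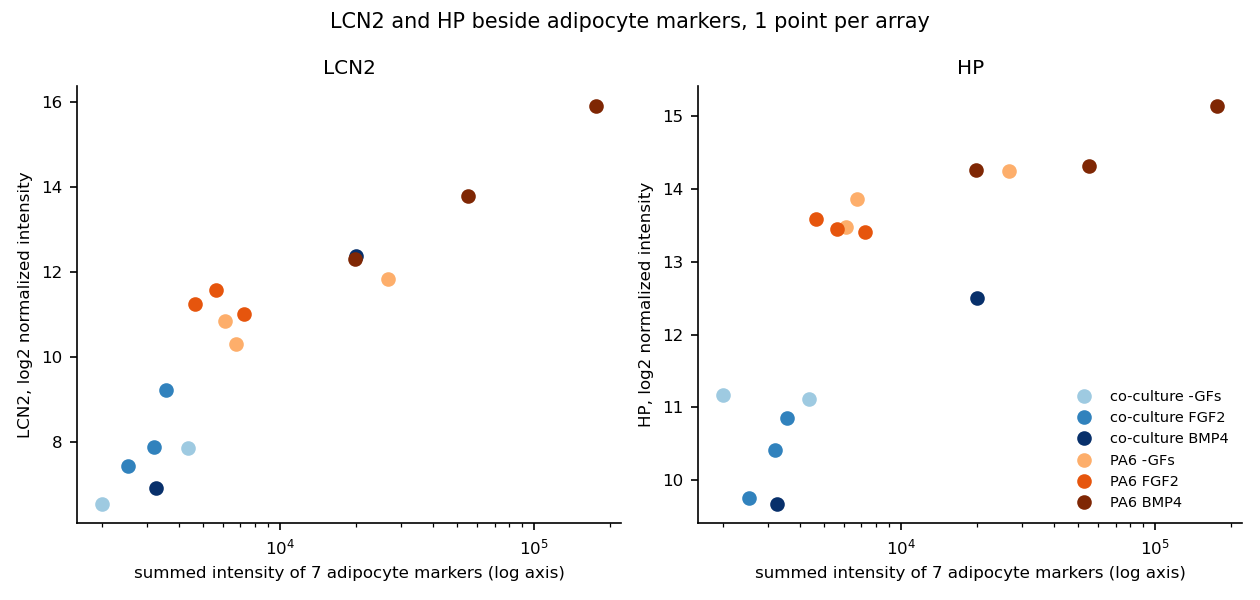
Log2 normalized intensity of LCN2 and HP (y axes) against the summed intensity of 7 adipocyte markers (x axis, log scale), with 1 point per array coloured by group. PA6 BMP4 replicate 1 (sum 176000) is highest on both axes, and co-culture BMP4 replicate 2 (sum 19900) lies far above the other co-culture arrays.

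SAA3 encodes an inducible serum amyloid A protein made outside the liver as well. In co-cultures its level (probe ILMN_2772632) was 9.07 and 8.13 without factors, 6.83, 6.49 and 8.08 with FGF2 and 6.15 and 7.86 with BMP4. All arrays with a factor lay below those without, by a narrow margin, and FGF2 replicate 2 and BMP4 replicate 1 were below detection. The changes of -1.47 ± 0.64 with FGF2 (SE, adjusted p = 0.228) and -1.60 ± 0.70 with BMP4 (SE, adjusted p = 0.348) were not called, but both were with median scaling (-1.43 and -1.48, adjusted p = 0.0390 and 0.0722). In PA6 SAA3 was at 7.97, 9.23 and 9.11 without factors, 8.68, 8.64 and 9.17 with FGF2 and 7.47, 8.20 and 8.95 with BMP4, and the groups overlapped. With FGF2 in co-cultures SAA3, HP, C3 and C4B, 4 of the 9, lay below the -GFs arrays with no overlap, as did 22.1% of all genes.

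Of the complement components, C3 is the protein on which all activation routes converge. Its probe (ILMN_2759484) was among the brightest of the array, at up to 86.4% of the highest intensity of the same array. Whether intensities are compressed there was not tested. In PA6 its level was 15.43, 15.64 and 15.80 without factors, 15.38, 15.71 and 15.62 with FGF2 and 15.63, 15.71 and 15.74 with BMP4. The groups overlapped, and the change with BMP4 was 0.07 ± 0.14 (SE, adjusted p = 0.911). In co-cultures C3 was at 13.57 and 13.53 without factors, 13.39, 12.14 and 12.91 with FGF2 and 12.10 and 13.91 with BMP4, with BMP4 replicate 2 again the higher array.

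C1S encodes the protease of the C1 complex that starts the classical route. It was the steadiest of the 9 in PA6, with a within-group SD of 0.12. Its level (probe ILMN_1257046) was 12.59, 12.56 and 12.59 without factors, 12.58, 12.57 and 12.74 with FGF2 and 12.50, 12.45 and 12.15 with BMP4. In co-cultures it stood at 8.87 and 9.31 without factors, 9.02, 8.71 and 9.26 with FGF2 and 9.68 and 9.61 with BMP4. BMP4 arrays lay below -GFs in PA6 and above -GFs in co-cultures, with changes of -0.21 ± 0.13 in PA6 (SE, adjusted p = 0.653) and 0.56 ± 0.25 in co-cultures (SE, adjusted p = 0.364), and neither passed. In co-cultures BMP4 arrays also lay above FGF2 arrays (0.65 ± 0.23, SE, adjusted p = 0.267), as they did for 16.8% of all genes. The dimmer C1S probe (ILMN_2667269) gave -0.54 ± 0.16 with BMP4 in PA6 with no overlap (SE, adjusted p = 0.519). In co-cultures it gave 0.31 with BMP4 against -GFs and 0.17 against FGF2, both with overlapping groups, so that the groups were apart there for 1 of 2 probes. The difference between these BMP4 effects, tested as an interaction over all 16 arrays, was 0.77 ± 0.26 and did not pass (SE, adjusted p = 0.150). The mouse genome holds the near-identical genes C1s1 and C1s2, which the target name does not tell apart.

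C4B, whose product is cleaved by C1s, varied between arrays of a group in PA6 more than the other complement genes. Its brightest probe (ILMN_3049559) gave 14.23, 13.44 and 12.24 without factors, 13.98, 13.06 and 12.77 with FGF2 and 14.08, 13.54 and 13.12 with BMP4. The 3 groups overlapped fully. In co-cultures the levels were 9.77 and 9.98 without factors, 8.61, 8.99 and 9.32 with FGF2 and 9.13 and 10.54 with BMP4, and the change with FGF2 of -0.90 ± 0.41 did not pass (SE, adjusted p = 0.251). The 2 dimmer C4B probes had levels of 8.81 to 10.48 in PA6 and were near or below detection on co-culture arrays. C4b and its neighbour C4a are near-identical, so the source of the signal between them is uncertain.

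SERPING1, the C1 inhibitor, is the regulator among the 9. Its level (probe ILMN_2913166) in PA6 was 14.53, 14.64 and 14.43 without factors, 14.31, 14.65 and 14.49 with FGF2 and 14.37, 14.73 and 14.24 with BMP4. In co-cultures it was 11.52 and 12.10 without factors, 11.31, 11.33 and 11.78 with FGF2 and 11.55 and 12.31 with BMP4. Within each kind of culture the groups overlapped, and changes against -GFs ran from -0.33 to 0.12.

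The comparison of co-cultures with PA6 alone addressed how the culture as a whole differs from its stroma. SERPINA3G, LCN2, HP, C3, C1S, C4B and SERPING1 were lower in co-cultures in each medium, and SAA3 was lower where a factor had been given. Without factors 7 of the 8 genes tested were called lower, where 44.1% of all genes were called, 21.8% lower and 22.3% higher. The 7 were the genes whose co-culture arrays all lay below the PA6 arrays, as 36.6% of all genes did. With FGF2 all 8 genes tested were called lower, where 46.4% of all genes were called and 22.9% lower, and none of the 8 overlapped, as 36.0% of all genes did in that direction. With BMP4 all 8 genes tested were called lower, where 42.4% were called and 20.3% lower, and 6 of the 8 did not overlap, beside 37.2% of all genes. The median change of the 9 genes was -2.72, -3.01 and -2.69 in these comparisons, against 0.032, -0.036 and 0.0077 over all genes.

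C1S had the smallest error relative to its change. It was 11.3-fold lower in co-cultures without factors, -3.49 ± 0.18 on the log2 scale (SE, limma adjusted p = 2.95e-09), 12.4-fold lower with FGF2 and 6.59-fold lower with BMP4. C4B was 10.8-fold, 19.7-fold and 13.4-fold lower and SERPING1 6.60-fold, 8.04-fold and 5.71-fold lower, in the same order. For these 3 genes every co-culture array lay below every PA6 array, and the additional probes gave the same calls. C3 was 4.20-fold, 6.74-fold and 6.45-fold lower, HP 6.57-fold, 8.81-fold and 11.1-fold lower and SERPINA3G 3.23-fold, 5.55-fold and 2.57-fold lower. C4B, C1S, SERPING1, C3 and HP kept these calls in all 16 fits that left out an array and in the 10 other settings. With BMP4 the size of the change rested on which co-culture array was used for HP, C3 and C4B. Over all fits without an array C1S ran from -2.83 to -2.65 and SERPING1 from -2.89 to -2.14. Without BMP4 replicate 1 and without BMP4 replicate 2 the log2 change was -2.07 and -4.89 for HP, -1.78 and -3.59 for C3 and -3.04 and -4.45 for C4B. The C3 folds are set against PA6 levels near the top of the array's range.

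Of the remaining calls, SERPINA3G without factors and with FGF2, and LCN2 and SAA3 with FGF2, were kept in all 16 fits without an array. LCN2 without factors and LCN2, SERPINA3G and SAA3 with BMP4 were lost without some arrays. LCN2 was lower by a log2 change of -3.79 ± 1.27 without factors (SE, adjusted p = 0.0185), -3.10 ± 1.13 with FGF2 (SE, adjusted p = 0.0264) and -4.36 ± 1.27 with BMP4 (SE, adjusted p = 0.00876), the last with overlapping groups. It was not called without co-culture -GFs replicate 2 in the first (-3.14, adjusted p = 0.124) and without co-culture BMP4 replicate 1 in the last (-1.63, adjusted p = 0.231). SERPINA3G with BMP4 (-1.36, adjusted p = 0.0116) and SAA3 with BMP4 (-1.20, adjusted p = 0.0983) were not called without that same array either (-0.76 and -0.35, adjusted p = 0.201 and 0.698), which left 5 of 8 genes called. Without co-culture BMP4 replicate 2 the changes were -7.08 for LCN2, -1.96 for SERPINA3G and -2.05 for SAA3, and LCN2 without factors was -4.44 without co-culture -GFs replicate 1. SAA3 with BMP4 was also not called with median scaling (-0.96, adjusted p = 0.168), with the replicate block (-0.71, adjusted p = 0.340) or without PA6 BMP4 replicate 2 or 3 (-1.20 and -0.83, adjusted p = 0.148 and 0.279). The same held without co-culture -GFs replicate 1 or 2, co-culture FGF2 replicate 1, PA6 -GFs replicate 2 or 3 or any PA6 FGF2 array (-1.20 each, adjusted p = 0.10 to 0.113). SAA3 with FGF2 was lower by a log2 change of -1.70 ± 0.54 with no overlap (SE, adjusted p = 0.0122). SAA3 without factors differed by -0.16 ± 0.60 (SE, adjusted p = 0.829).

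SERPINA3N has no test between the kinds of culture, because the PA6 arrays without factors and with FGF2 helped to choose it and no array of either kind detected it with BMP4. Its means were 7.01 ± 1.26 (SD, n = 2) in co-cultures and 5.96 ± 0.48 (SD, n = 3) in PA6 without factors, where the PA6 arrays were below detection and co-culture replicate 1 lay within their range. With FGF2 they were 9.18 ± 0.74 (SD, n = 3) in co-cultures and 8.80 ± 0.40 (SD, n = 3) in PA6, and the arrays overlapped.

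**Figure D4:**
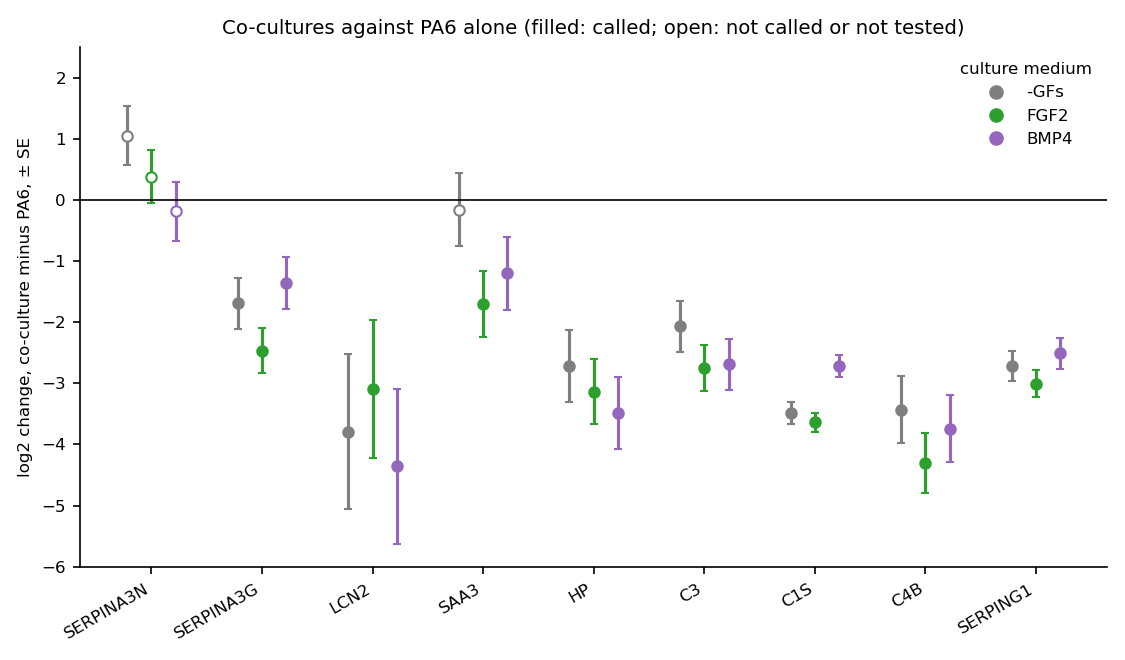
Log2 change of each gene in co-cultures relative to PA6 alone (y axis, point and SE) in each medium (colours), filled where called. C1S, C4B, SERPING1, C3, HP, LCN2 and SERPINA3G lie below 0 in every medium, at -1.36 to -4.36, and the open points of SERPINA3N carry no test.

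Stromal markers moved in the same direction. Of 10 stromal fibroblast markers 8 were called lower without factors, 8 with FGF2 and 6 with BMP4, with medians of -2.39, -1.80 and -1.43. Their summed intensity was 149000 to 192000 in PA6 and 60800 to 64000 in co-cultures without factors, 151000 to 169000 and 59300 to 65000 with FGF2, and 122000 to 163000 and 58200 to 71700 with BMP4. All 7 tested neural markers and all 8 pluripotency markers were called higher without factors, as 22.3% of all genes were. Of all genes 21.8% were called lower without factors, 22.9% with FGF2 and 20.3% with BMP4. The share of stromal RNA in a co-culture and the level of these genes within stromal cells cannot be told apart here.

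BMP4 effects were compared between the kinds of culture with the interaction term. Here limma called 0 of the 8 genes tested, and C1S was the 1 whose unadjusted p was under 0.05, as it was for 2304 of 14829 genes, where 4.23% of all genes were called. The differences ran from -1.04 ± 0.85 for SAA3 (SE, adjusted p = 0.621) to the value of C1S given above. Without co-culture BMP4 replicate 2 that of HP was -2.18 and was called (adjusted p = 0.0541), and over all arrays it was -0.76 ± 0.84 (SE, adjusted p = 0.733). For FGF2 the same term holds the contrast that chose the genes, and its values of -0.67 for SERPINA3N, -1.53 for SAA3 and -0.78 for SERPINA3G have no test.

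Levels of the 9 genes were set against each other across arrays as a description. Over the 16 arrays, which share the divide between the kinds of culture, Pearson's r was 0.99 for C1S with SERPING1 and 0.96 for HP with C3, and SERPINA3N had values of -0.42 to -0.05 with the other 8. Over the 9 PA6 arrays the pairs with the highest r were LCN2 with HP (0.88) and SERPINA3N with SERPINA3G (0.75), and C1S with SERPING1 had 0.38. Among all other genes the pattern most like SERPINA3N over 16 arrays was that of LOC100046802 (r = 0.859), HRB (0.826), TSPAN17 (0.815), ENPP2 (0.812) and ARHGAP22 (0.812), and over the 9 PA6 arrays that of LHFPL2 (0.966), INSIG2 (0.962), ANGPT1 (0.954), COL15A1 (0.945) and SPP1 (0.937). The genes most like C3 were OGN (0.987), ZFP213 (0.985), EG317677 (0.984), CAMKK2 (0.982) and a RIKEN cDNA gene (0.982) over 16 arrays, and RASSF5 (0.950), PYROXD1 (0.948), PTGES3 (0.947), IRX1 (0.938) and TRUB1 (0.933) in PA6. Such ranks are taken over 14829 genes and few arrays. In PA6 SERPINA3N was above detection on the FGF2 arrays alone. Its r values there, that with SERPINA3G included, therefore restate the contrast that chose the set, and those over 16 arrays hold it in part.

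Other genes of the same pathways were taken from 4 lists. Of 32 other acute phase genes 11 were tested, of 24 other complement components 11, of 18 complement regulators and receptors 8, and of 29 cytokines and signal genes of the acute phase 23. With FGF2 in co-cultures MT2, a metallothionein, was called higher (1.86 ± 0.31, SE, adjusted p = 0.0195), as were CD55, which speeds the decay of the C3 convertases (2.86 ± 0.33, adjusted p = 0.00750), the LIF receptor LIFR (at least 1.78-fold, adjusted p = 0.0217) and the NF-kB cofactor BCL3 (at least 1.46-fold, adjusted p = 0.0972). No other gene of the 4 lists was called in that comparison, where 7.42% of all genes were called. With BMP4 in co-cultures MT2 (1.53, adjusted p = 0.0779) and CD55 (1.79, adjusted p = 0.0610) were the called genes, where 3.75% of all genes were called. These named genes are descriptions and not a result about the lists. In PA6 no listed gene was called with either factor against -GFs, where 0.0270% of all genes were called with FGF2 and 0% with BMP4. Between BMP4 and FGF2, where 0.310% of all genes were called, only SERPINA3H was. This other gene of the Serpina3 cluster was at least 2.21-fold lower with BMP4 (adjusted p = 0.0526). SERPINA3H was detected on all 3 FGF2 arrays and on no BMP4 array of PA6. Of the 8 cytokines listed IL6, LIF, IL1A, IL1B and TNF were detected by no group on all of its arrays, and OSM, IL11 and CSF3 were tested. OSM, oncostatin M, was at 6.95 to 8.50 with FGF2 and 5.90 to 7.11 without factors in co-cultures (1.46 ± 0.54, SE, adjusted p = 0.169). IL11 and CSF3 were detected on all PA6 FGF2 arrays, at 7.20 to 7.63 and 6.90 to 7.84, where the lowest detected levels were 6.69 to 6.89. Of the 23 signal genes tested 0 were called with FGF2 against -GFs in PA6, with a median change of -0.09.

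Between co-cultures and PA6 without factors, where 21.8% of all genes were called lower and 22.3% higher, 5 of 11 other acute phase genes were called lower and 0 higher (median change -1.87), with CD14, a co-receptor for endotoxin, at -3.79 ± 0.50 (SE, adjusted p = 1.73e-05), LBP, which binds endotoxin, at least 6.15-fold lower and CP, ceruloplasmin, at -2.73 ± 0.31. Of 11 other complement components 3 were called lower (median -0.62), led by COLEC12 (-3.20 ± 0.24), C4A (-3.02 ± 0.49) and COLEC11 (-1.22 ± 0.37). Of 23 cytokine and signal genes 18 were called lower and 0 higher (median -2.28), led by the NF-kB regulator NFKBIZ (-3.73 ± 0.29), the oncostatin M receptor OSMR (-3.54 ± 0.35) and the factor CEBPA (at least 6.35-fold lower). Of 8 regulators and receptors 4 were called higher and 1 lower (median 1.23). Vitronectin, VTN, which binds the terminal complex, was at least 8.92-fold higher, and CD59A and CD59B, which block that complex on the cell surface, were at least 7.09-fold and 3.90-fold higher. With FGF2, where 46.4% of all genes were called and 22.9% lower, 6 of 11 acute phase genes were lower and 1 higher. The other FGF2 counts were 5 and 1 of 11 components, 1 and 5 of 8 regulators and 16 and 1 of 23 signal genes. With BMP4 they were 7 and 2, 6 and 1, 1 and 5, and 17 and 0. There 42.4% of all genes were called and 20.3% were called lower.

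**Figure D5:**
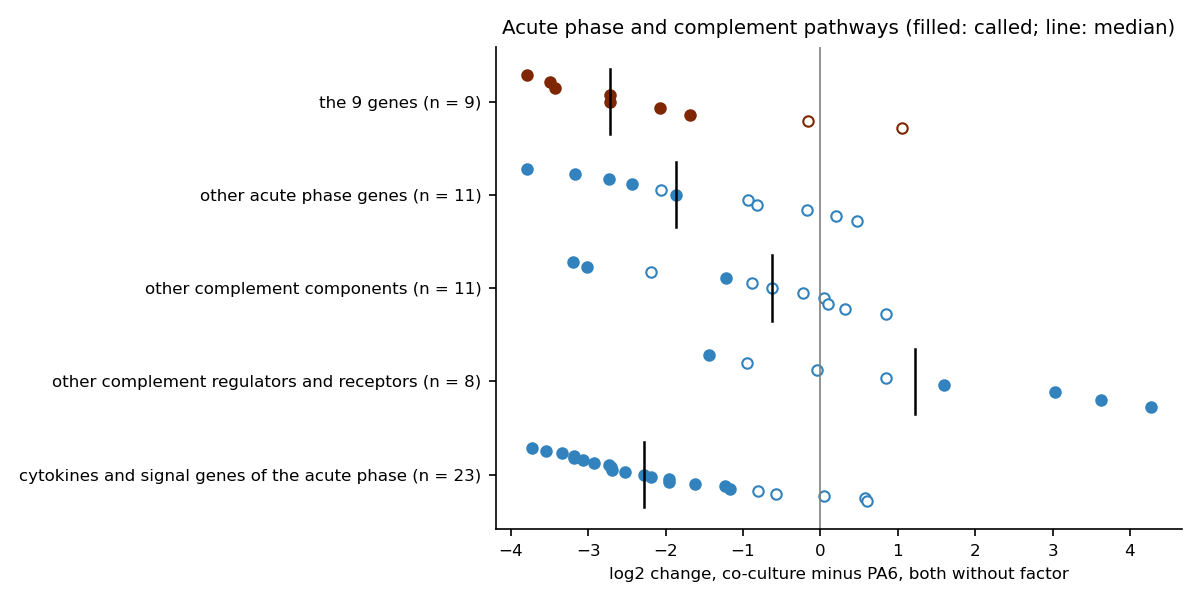
Log2 change between co-cultures and PA6 without factors (x axis) for the 9 genes and for 4 lists of other genes (rows), with 1 point per gene, filled where called, and a line at the median. Medians are -2.72 for the 9 genes and -2.28 for the cytokines and signal genes, and 1.23 for the complement regulators and receptors.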

How the data were processed

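Total RNA of 16 cultures was hybridized by the authors to Illumina MouseWG-6 v2.0 BeadChips, and the labels describe 1 well of each treatment per biological replicate. The deposited table holds an average bead intensity per probe and array, not normalized between arrays, and a detection p-value, which the deposited header names. Per the labels GenomeStudio 2011.01 was used, and the cubic spline normalized values the study worked with were not used here. The build behind the probes is not given in the sources used here, and promoter windows came from RefSeq (GRCm38.p6).

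With neqc (limma 3.58.1, R 4.3.3), background was removed by normexp using the detection p-values, 16 was added, and log2 values of the 16 arrays were brought to common quantiles. A probe was kept if all arrays of some group detected it (p under 0.05). A gene was represented by its kept probe with the largest mean. Linear models (lmFit, eBayes) were fitted to the 7 co-culture arrays, to the 9 PA6 arrays, and to all 16 for differences between kinds of culture. Calls needed a Benjamini-Hochberg adjusted p under 0.1 over all 14829 genes and a log2 change over 1 in size, as in the methods of the study. Where no array of a group detected a gene, its fold is a lower bound set by the lowest detected level of those arrays. SERPINA3N was tested within co-cultures alone, since comparisons with PA6 use arrays that chose it or arrays that did not detect it. The fits were tested on simulated data. Named genes are the 9, up to 3 called genes with the largest change per list and comparison, and the 5 genes most like SERPINA3N and C3. The genes, lists and motifs were chosen with earlier results of these data known. The number of arrays limits the precision. Alternatives covered scaling, background, offset, filters, probes, thresholds, the variance prior, blocks and each array left out.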

Additional observations from a re-analysis of the deposited data

How the results depend on the processing

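Results were recomputed under 11 other settings and without each array in turn. Of 75 changes of single genes, 745 of 781 values under other settings and 778 of 845 without an array kept their direction and their side of the threshold, and none of the called changes turned direction. The number of the 9 genes called with FGF2 in co-cultures (1) was 2 with median scaling, 0 with detection on all 16 arrays, without a filter on dim probes, at an adjusted p under 0.05 and with the replicate number as a block, and 0 to 1 without an array. With BMP4 in co-cultures (0) it was 2 with median scaling (LCN2 and SAA3), 1 with the column run as a block (SERPINA3N) and 0 to 1 without an array. Between BMP4 and FGF2 in co-cultures (1) it was 0 with detection on all 16 arrays, without the filter, at 0.05 and with the replicate block, and 0 to 1 without an array. With detection on all 16 arrays SERPINA3N itself is left out. Between BMP4 and FGF2 in PA6 (0) it was 1 with a trend in the variance prior. For co-cultures against PA6 it was 6 to 7 of 8 without an array in -GFs medium and 5 to 8 with BMP4, the lowest without co-culture BMP4 replicate 1, and for the difference of BMP4 effects (0) it was 0 to 1. The described difference of SERPINA3N in PA6 with FGF2 (2.84) was 1.77 without background correction and 2.31 with an offset of 50, and 2.61 to 3.09 without an array. Apart from those calls and those reported beside SERPINA3N and SAA3, the replicate block changed no call. Same-numbered arrays of different groups deviated from their group means with correlations of 0.07 to 0.199 in PA6, where those with different numbers had -0.136 to -0.012, so every PA6 array correlated best with its own number. In co-cultures same-numbered arrays had -0.199 to 0.283, and arrays of the same column run 0.098 to 0.283. Since not every pair was over 0.1, the main fits hold no block and the blocks stand as alternatives. The main PA6 p-values thus leave out a pairing by number, which the PA6 correlations follow. The cause of the differences between arrays was not tested.

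Small changes that were not called turned direction under some settings. Median scaling gave SERPINA3G 0.08, HP 0.07 and C4B 0.09 with BMP4 in co-cultures, SERPINA3G 0.24 between BMP4 and FGF2 in co-cultures and C3 -0.10 with BMP4 in PA6. Without background correction SERPINA3G differed by 0.00 between BMP4 and FGF2 in co-cultures. Other probes gave HP 0.29 and C4B 0.42 with BMP4 in co-cultures. The replicate block gave 0.09 for SERPINA3G and 0.34 for SAA3 between BMP4 and FGF2 in co-cultures and 0.33 for SAA3 between co-cultures and PA6 without factors. The column run as a block gave SERPINA3G 0.33 with FGF2 and 0.59 with BMP4, HP 0.77, C3 0.17 and C4B 0.04 with BMP4, SERPINA3G 0.27 and SAA3 0.01 between BMP4 and FGF2 in co-cultures, and 0.55 for LCN2 in the difference of BMP4 effects.

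Without an array, ranges that crossed 0 were as follows. For FGF2 against -GFs in co-cultures the range was SERPINA3G -0.29 to 0.27 and C1S -0.31 to 0.13. For BMP4 against -GFs in co-cultures the range was SERPINA3G -0.66 to 0.54, LCN2 -0.29 to 5.16, HP -1.47 to 1.36, C3 -1.45 to 0.36, C4B -0.74 to 0.67 and SERPING1 -0.25 to 0.50. For BMP4 against FGF2 in co-cultures the range was SERPINA3G -0.61 to 0.60, LCN2 -1.27 to 4.19, SAA3 -0.99 to 0.72, HP -0.66 to 2.16 and C3 -0.72 to 1.09. For BMP4 against -GFs in PA6 the range was C3 -0.03 to 0.16, C4B -0.25 to 0.74 and SERPING1 -0.23 to 0.02. For BMP4 against FGF2 in PA6 the range was SERPING1 -0.18 to 0.06. Between co-cultures and PA6 without factors the range was SAA3 -0.64 to 0.31. In the difference of BMP4 effects the range was SERPINA3G -0.27 to 0.93, LCN2 -3.29 to 2.16, HP -2.18 to 0.65, C3 -1.52 to 0.29, C4B -1.02 to 0.40 and SERPING1 -0.17 to 0.59.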

Other observations

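Genes outside the 9, chosen after their values were seen, followed the arrays on which LCN2 was high. CFD, complement factor D or adipsin, which stands on both the complement and the adipocyte list, was at 12.58 to 15.92 in PA6 with BMP4, 8.33 to 12.94 without factors and 6.29 to 9.23 with FGF2 on the log2 scale. ORM1, an orosomucoid, was at 9.06 to 13.93 with BMP4, detected on all 3 arrays, and at 6.05 to 10.48 without factors and 5.67 to 8.13 with FGF2. Neither was called with BMP4 against -GFs in PA6.

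C4A, the near-identical neighbour of C4B, was at 12.84 to 14.31 in PA6 without factors and 10.53 to 10.59 in co-cultures without factors, beside 12.24 to 14.23 and 9.77 to 9.98 for C4B. With FGF2 in co-cultures the C4A arrays lay at 9.52 to 9.57, below both -GFs arrays.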
